A study of Mus musculus with 8 samples.

Results

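A set of 9 genes of the elastic fibre were followed in mouse embryonic fibroblasts treated with retinoic acid (RA). They were chosen by name, with earlier results of these data known. They make up 9 of the 22200 genes in the deposited table: the fibulins Fbln7, Efemp1, Fbln1, Fbln2 and Fbln5, the scaffold genes Fbn1 and Eln, and the lysyl oxidases Lox and Loxl1. All 9 were present and all 9 passed the filter on low values, a mean of at least 10 normalised reads over the libraries, which 12673 genes passed. A further list of 24 elastic fibre and microfibril genes was described beside them.

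The cells were an immortalised line of C57BL/6 background labelled TAF4-/-, the genotype given for every library. TAF4 belongs to TFIID, the complex that binds core promoters with RNA polymerase II, and the study made its TAF4-null line by Cre recombination of a floxed allele in cultured fibroblasts. Polyadenylated RNA was profiled in 3 untreated libraries kept for 12 h, 3 libraries treated with RA for 12 h and 2 treated for 72 h. Untreated cells were not profiled at the late time, so that the longer time in culture and the longer time in RA cannot be told apart, and no TAF4-expressing library, so that nothing below bears on the deletion itself. The labels do not say whether replicates were separate cultures, and p-values therefore measure the spread between these libraries, which may be technical.

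The deposited values are normalised reads per gene, and every library had the same set of values, from 1 to 165593 with a median of 20.75 and a total of 9442018.6, so the true depths are unknown. Taf4a, the deleted gene, was read in all 8 libraries at 983.75 to 1449.25, which does not check the labels, since a gene total does not show whether the deleted exons were read. Its paralogue Taf4b had 49.5 to 99. The library names carry cl1, which resembles C1, the study's name for its TAF4-expressing line, while its null line is C3. The study's methods name C3 cells as the source of the RNA sequenced after RA. These values by themselves do not settle which line was used, and the genotype label was followed. The RA-response genes Cyp26b1, Rarb and Dhrs3 were each called higher at both times. The fibroblast markers were high, with a median level of 17406 over 10 genes, except Thy1, which stayed between 1 and 3.5. The endothelial, epithelial, macrophage and chondrocyte markers in the table had mean levels under 50 throughout, and Epcam was not listed. Within groups, 50.1% of the variance lay on 1 axis. It was found in deviations from each group's mean, so it had to divide every group, and the 2 libraries at 72 h had to lie opposite. RA 12 h replicate 3 and RA 72 h replicate 2 lay with untreated replicates 1 and 2, and the other 4 libraries lay opposite. The labels name no batch, and changes within each side are given below for the members that passed the test.

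Elastic fibres give skin, lung and arteries their recoil. Fibroblasts and smooth muscle cells first lay down microfibrils of fibrillin, onto which tropoelastin, the product of Eln, is deposited with the help of fibulins. Lysyl oxidases then oxidise lysines of elastin and collagen, which cross-links them. Fibulins are secreted glycoproteins with repeated EGF-like domains, and the short ones are fibulin-3 (Efemp1), fibulin-4 (Efemp2), fibulin-5 (Fbln5) and fibulin-7 (Fbln7). RA acts through nuclear receptors that bind DNA as heterodimers at pairs of short repeated words.

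RA raised 2 of the 9 genes by at least 2-fold, both of them short fibulins. Fbln7, which codes for a cell adhesion protein first described in developing teeth, was 5.99 times the untreated mean at 12 h and 19.5 times at 72 h. Efemp1, which codes for a matrix protein known for its link to an inherited retinal dystrophy, was 2.12 and 3.69 times the untreated mean. The changes of the other 7 genes stayed under 2-fold. A gene was called when its Benjamini-Hochberg adjusted p in limma was below 0.05 over all genes tested and its change was at least 2-fold, and "rose" or "fell" is used for an adjusted p below 0.05 alone. Log2 changes are on the log2(value + 1) scale, with the SE of the fit.

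At 12 h, 2 of the 9 genes were called higher and 0 lower, against a background of 1.11% higher and 0.308% lower over all genes tested. At 72 h the counts were again 2 and 0, beside 2.15% higher and 1.52% lower over all genes. Between 12 h and 72 h of RA, 1 gene was called higher and 0 lower, beside 0.765% and 0.734% over all genes. With the adjusted p alone, 2 genes rose and 1 fell at 12 h, where 2.87% and 1.5% of all genes did. With the side of the shared axis as a term in the fit, 4 were lower at 12 h. Fbln2 (adjusted p = 0.0327), Fbln5 (0.0497) and Lox (0.0158) passed beside Fbn1, in ranges over the alternatives that reached 0.381, 0.944 and 0.631. The axis came from deviations within groups in these same libraries. The term therefore takes out residual spread by construction, and lower p-values with it are no separate evidence. With the 2-fold minimum, that fit called 150 of all genes higher and 47 lower at 12 h, beside 141 and 39 without the term. The 4 members were lower by less than 2-fold, so these counts are no background for them. The share of all genes by the adjusted p alone in that fit is not given here. At 72 h, 3 rose and 4 fell, where 6.08% and 5.41% of all genes did. The 4 falls depended on the setting. With no variance trend 0 fell, and 1 fell with the gene-body background described under Eln subtracted or without untreated replicate 1. With the replicate number as a block or with no filter 2 fell, while 3 rose in each of these fits. The falls and the rise of Loxl1 also depended on the 72 h libraries, as given for each gene below. Between the times 2 rose and 0 fell, where 2.92% of all genes rose and 2.92% fell. Groups did not overlap at 12 h for 2 genes that were higher and 3 that were lower (9.42% and 10.6% of all genes), at 72 h for 4 and 4 (17.2% and 19.4%), and between the times for 3 and 3 (18.1% and 19.2%). The median log2 change of the 9 was -0.18 at 12 h and 0.01 at 72 h, beside -0.02 over all genes at both times. The 12 h and 72 h comparisons share their untreated libraries. Since the members and the wider list were chosen with earlier results known, a count above the share over all genes is no test of either.

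**Figure D1:**
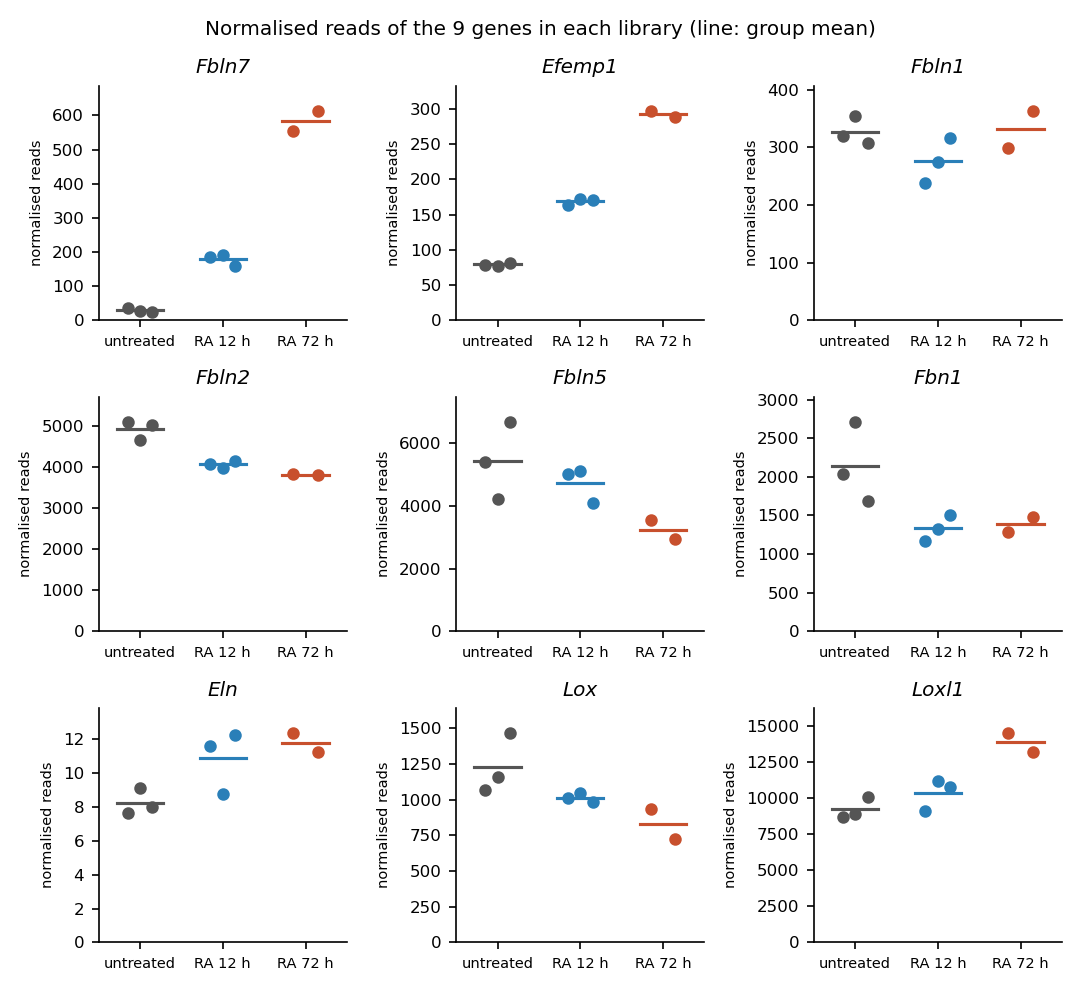
Normalised reads of the 9 genes in each of the 8 libraries, 1 panel a gene, with points for libraries, a line for each group mean and axes that start at 0. The untreated, RA 12 h and RA 72 h libraries of Fbln7 and Efemp1 form 3 separate steps, and the 3 groups of Fbln1 overlap.

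Fbln7 (ENSMUSG00000027386, mm9 chr2:128688717-128722770, plus strand) had 37.25, 26.875 and 25.75 normalised reads in the untreated libraries. It had 186.875, 191.5 and 160.25 after 12 h of RA, and 555.625 and 612.75 after 72 h. The 3 groups did not overlap, and the lowest library at 72 h was above every library at 12 h. The log2 change was 2.56 ± 0.16 at 12 h (adjusted p = 7.57e-07) and 4.26 ± 0.18 at 72 h (adjusted p = 1.11e-08), the fifth highest of the 12673 genes tested. The step from 12 h to 72 h, 1.70 ± 0.18, was called as well (adjusted p = 0.000151). Within the 2 sides of the shared axis the change was 2.30 and 2.83 at 12 h, and 4.23 and 4.38 at 72 h. Fbln7 was called in all 3 comparisons under every alternative setting, each library left out included.

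Efemp1 (ENSMUSG00000020467, mm9 chr11:28753204-28826743, plus strand) had 79, 77.75 and 81.25 normalised reads in the untreated libraries. After 12 h it had 164.125, 171.375 and 170.125, and after 72 h 296.625 and 288.5. Its groups were also fully separate, and its replicates lay closest together of the 9 genes, with a coefficient of variation of at most 2.30% in any group. On the log2 scale it was higher by 1.08 ± 0.12 at 12 h (adjusted p = 9.81e-05) and 1.87 ± 0.14 at 72 h (adjusted p = 1.52e-06). Efemp1 also rose between 12 h and 72 h, by 0.79 ± 0.14 (adjusted p = 0.00392), without reaching 2-fold. That rise had an adjusted p of 0.0535 without RA 72 h replicate 1, the highest over its alternatives, which began at 0.000197. Within the sides the change was 1.11 and 1.04 at 12 h, and 1.87 and 1.86 at 72 h. With a pseudocount of 10 the 12 h change was 0.999 and fell just short of 2-fold.

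The sequence before the start site of both genes is shown because these were the members that rose together. Each run is the 250 bases upstream of a RefSeq start (GRCm38.p6), 5′ to 3′ on the gene's strand, from windows at chr2:128863682-128863931 and chr11:28852955-28853204.
Fbln7: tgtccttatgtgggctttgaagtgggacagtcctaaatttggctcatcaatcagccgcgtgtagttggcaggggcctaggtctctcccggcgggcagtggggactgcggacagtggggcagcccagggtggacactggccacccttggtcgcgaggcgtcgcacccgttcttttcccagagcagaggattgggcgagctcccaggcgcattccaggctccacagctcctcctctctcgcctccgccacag
Efemp1: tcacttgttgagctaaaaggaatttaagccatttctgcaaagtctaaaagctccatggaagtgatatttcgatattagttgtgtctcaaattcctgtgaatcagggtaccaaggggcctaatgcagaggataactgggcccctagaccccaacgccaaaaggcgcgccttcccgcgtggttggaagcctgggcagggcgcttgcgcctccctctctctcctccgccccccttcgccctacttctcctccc
Capitals would mark any of 4 words of 6 letters that RA receptor repeats are built from, on either strand: the first is AGGTCA, the second is AGTTCA, the third is GGGTCA and the fourth is GGTTCA. Neither window held one, and 38.6% of the 32851 windows in the RefSeq table did. The promoter table held 6 of the 9 genes. The windows of Fbln1, Fbln2 and Fbn1 held none of the words, and each window of Fbln5 held 1. The Fbln7 window matched mm9 once, 701 bases into the gene as annotated there.

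A wider search used 10 kb on either side of each gene's annotated start in mm9. It looked for any pair of the same 6-letter words on one strand, in the same orientation, 1, 2 or 5 bases apart. Such a pair was present near 5 of the 9 genes and near 41.5% of the 12503 genes tested that have a position. The sites are printed from the strand that carries the words, with the words in capitals and the spacer in lower case.
Fbln7, chr2:128683660-128683673, minus strand: GGTTCAgaGGTTCA
Efemp1, chr11:28748916-28748928, plus strand: AGTTCAgAGTTCA
Fbln2, chr6:91154156-91154168, plus strand: AGTTCAtAGGTCA
Fbln2, chr6:91166199-91166211, minus strand: GGGTCAgAGGTCA
Fbn1, chr2:125326124-125326136, minus strand: AGGTCAgAGGTCA
Eln, chr5:135216404-135216417, plus strand: AGGTCAccAGTTCA
Eln, chr5:135221846-135221859, plus strand: GGTTCAtaGGTTCA
The Fbln7 pair, spaced by 2, lay upstream at -5050 bases from the start, and the Efemp1 pair, spaced by 1, lay upstream at -4282 bases. Fbn1, which fell, also held a pair, 7599 bases into the gene. Fbln2 and Eln each held 2 pairs. A spacing of 1 was found near 15.7% of genes, of 2 near 25.4% and of 5 near 7.77%. A match of letters is a description and no measure of binding.

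**Figure D2:**
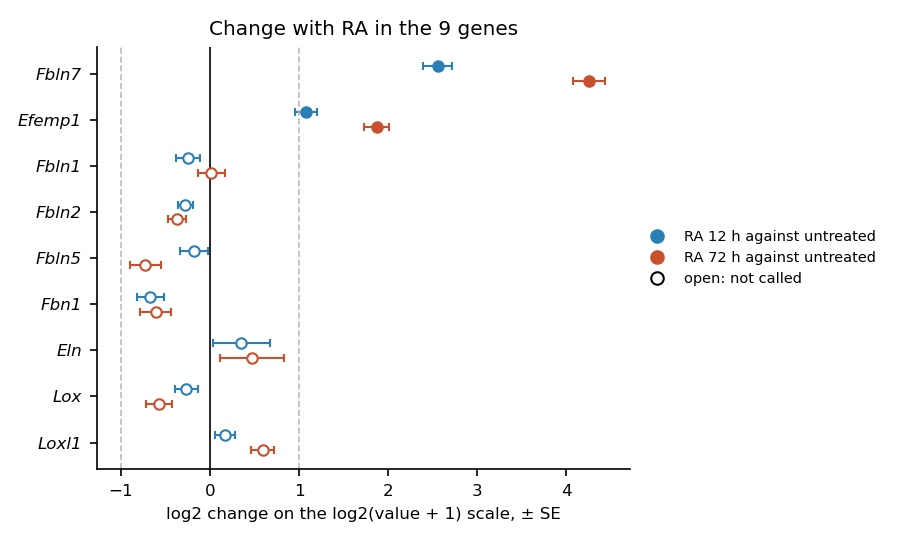
Log2 change of each of the 9 genes at 12 h and 72 h of RA against untreated, with the SE of the fit as bars, filled points for called genes and dashed lines at a 2-fold change. Fbln7 and Efemp1 lie beyond the 2-fold line on the right, further at 72 h than at 12 h, and the other 7 genes lie between the lines.

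The long fibulins and fibulin-5 did not follow. Fbln1, whose product binds fibronectin and sits in basement membranes and elastic fibres, had 318.875, 355.125 and 306.75 normalised reads untreated, 237.75, 274.625 and 316.125 at 12 h, and 299.25 and 362.875 at 72 h. The groups overlapped, and the log2 change was -0.25 ± 0.13 at 12 h (adjusted p = 0.382) and 0.01 ± 0.15 at 72 h (adjusted p = 0.969).

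Fbln2, whose product links fibrillin, elastin and fibronectin, had 5096.75, 4655.38 and 5027.38 normalised reads untreated. It had 4079.38, 3981.13 and 4144 at 12 h, and 3830 and 3798.63 at 72 h, so the 3 groups did not overlap. At 12 h its log2 change, -0.28 ± 0.09, did not pass (adjusted p = 0.119), though it did with the side of the shared axis as a term (0.0327) and with the gene-body background described under Eln subtracted (0.0412). At 72 h the change was -0.37 ± 0.10 (adjusted p = 0.0288), with -0.36 and -0.39 within the sides. The adjusted p at 72 h ranged from 0.00343 to 0.162 over the alternatives. It was above the threshold without untreated replicate 1 (0.0945), RA 12 h replicate 2 (0.0587), RA 72 h replicate 1 (0.162) or RA 72 h replicate 2 (0.149).

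Fbln5, whose product binds tropoelastin, Loxl1 and integrins and is needed for elastic skin and arteries, had 5404.5, 4221 and 6668.5 normalised reads untreated. At 12 h it had 5000.13, 5116.63 and 4079.38, within or just under the untreated range. At 72 h it had 3538 and 2949.63, below all 6 earlier libraries. Its log2 change was -0.18 ± 0.15 at 12 h (adjusted p = 0.598) and -0.72 ± 0.17 at 72 h (adjusted p = 0.0141), with -0.70 and -0.91 within the sides. At 72 h the adjusted p was 0.0736 with no variance trend and 0.0867 with the gene-body background subtracted. Over the alternatives the adjusted p at 72 h ranged from 5.26e-06 to 0.138, and it was 0.0523 without untreated replicate 1 and 0.138 without RA 72 h replicate 2. The step from 12 h to 72 h was -0.54 ± 0.17 and did not pass (adjusted p = 0.0884), but its adjusted p was 0.0339 without untreated replicate 2 and 0.0193 without untreated replicate 3, in a range from 0.00213 to 0.469.

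Of the scaffold genes, only Fbn1 was read well above the background. Fbn1 codes for fibrillin-1, the main microfibril protein, which is mutated in Marfan syndrome. It had 2041.63, 2707.88 and 1690.25 normalised reads untreated, 1165.88, 1321.38 and 1507.63 at 12 h, and 1283.75 and 1486.25 at 72 h. All 5 RA libraries were below the 3 untreated ones, which were themselves widely spread, with a coefficient of variation of 24.1%. The log2 change was -0.67 ± 0.15 at 12 h (adjusted p = 0.0247) and -0.61 ± 0.17 at 72 h (adjusted p = 0.0368), and the values at both times were close (difference 0.06 ± 0.17). Within the sides the change was -0.64 and -0.45 at 12 h, and -0.66 and -0.40 at 72 h. The adjusted p ranged from 0.000732 to 0.145 over the alternatives at 12 h. It was 0.0867 without untreated replicate 1, 0.0723 without untreated replicate 2, 0.142 without RA 12 h replicate 1 and 0.112 without RA 12 h replicate 2. At 72 h it ranged from 0.000793 to 0.274, and it was above 0.05 without untreated replicate 1 (0.0876), untreated replicate 2 (0.0920), RA 12 h replicate 2 (0.0657), RA 72 h replicate 1 (0.274) or RA 72 h replicate 2 (0.0784). The unnamed gene model Gm9913 overlaps Fbn1 on the opposite strand, and whether the counting used strand is not given in the sources used here.

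Eln itself was barely read. It had 7.625, 9.125 and 8 normalised reads untreated, 11.625, 8.75 and 12.25 at 12 h, and 12.375 and 11.25 at 72 h, all below the median gene. An estimate of reads from unspliced or stray RNA, the 25th percentile of reads per length over genes spanning at least 100 kb, came to 5.06 of the mean of 8.25 untreated and 6.19 of 11.8 at 72 h. Its log2 change was 0.35 ± 0.32 at 12 h (adjusted p = 0.631) and 0.47 ± 0.36 at 72 h (adjusted p = 0.475). The data therefore describe elastic fibre and microfibril genes beside few reads of Eln, and no change of Eln passed the test. The labels describe tags read at a single cut site, and whether few reads mean little elastin transcript was not tested.

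The lysyl oxidases went opposite ways at 72 h. Lox had 1064.25, 1155.25 and 1466 normalised reads untreated, 1009.38, 1047.13 and 981.875 at 12 h, and 932.25 and 723.125 at 72 h. The log2 change was -0.27 ± 0.13 at 12 h (adjusted p = 0.341) and -0.57 ± 0.15 at 72 h (adjusted p = 0.0225), with -0.62 and -0.65 within the sides. The adjusted p at 72 h ranged from 8.86e-05 to 0.237 over the alternatives, the highest without RA 72 h replicate 2, the lowest of the 8 libraries. Loxl1, whose product acts on tropoelastin together with fibulin-5, had 8646.63, 8895 and 10073.4 normalised reads untreated and 9107.25, 11139.1 and 10734.3 at 12 h. It had 14484.6 and 13205.9 at 72 h, above all other libraries. For Loxl1 the log2 change was 0.16 ± 0.11 at 12 h (adjusted p = 0.505) and 0.59 ± 0.13 at 72 h (adjusted p = 0.0076), with 0.59 and 0.52 within the sides. The adjusted p at 72 h ranged from 0.000263 to 0.0967, the highest without RA 72 h replicate 1. The step from 12 h to 72 h in Loxl1 was 0.43 ± 0.13 (adjusted p = 0.0686), which was 0.0344 without untreated replicate 3, in a range from 0.00555 to 0.332.

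Levels were compared between genes as normalised reads per kb of annotated exon. Such levels suit libraries of RNA fragments, as the methods describe, and not tags read at a single cut site, as the labels describe, so the order is given with that limit. In untreated cells Loxl1 was highest at 2758 ± 228 (SD, n = 3), followed by Fbln5 at 932 ± 210 and Fbln2 at 838 ± 40.4, whose ranges overlapped. The genes Lox (262 ± 44.8), Fbn1 (177 ± 42.6), Fbln1 (74.8 ± 5.76) and Efemp1 (38.9 ± 0.871) came next, with no overlap between neighbours. Fbln7 was eighth at 9.28 ± 1.96 and Eln was last at 3.19 ± 0.302.

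By 72 h Fbln7 had moved from the eighth place to the fourth per kb, at 181 ± 12.5 (SD, n = 2), where its range overlapped with that of Lox (176 ± 31.5). In undivided reads it had moved from the eighth place to the sixth, with 584 ± 40.4 beside 828 ± 148 for Lox, and the ranges did not overlap. Both scales thus put it above Fbln1 at 72 h and below it untreated. The place of Efemp1 depended on the scale. Per kb it stood at 144 ± 2.82 at 72 h, above Fbn1 (114 ± 11.8) and Fbln1 (75.8 ± 10.3), and it was already above Fbln1 at 12 h (82.7 ± 1.90 against 63.2 ± 8.98). Undivided it had 293 ± 5.75 at 72 h, below Fbln1 (331 ± 45.0) and Fbn1 (1385 ± 143), and it was eighth. At 12 h Fbln7 overlapped with Fbln1 per kb (55.6 ± 5.23) but lay below every Fbln1 library in undivided reads. On both scales Loxl1 was first and Eln last in every group, and Fbln2 stood above Fbln5 at 72 h, with 649 ± 3.78 and 556 ± 71.4 per kb. The undivided order was added after seeing the data.

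**Figure D3:**
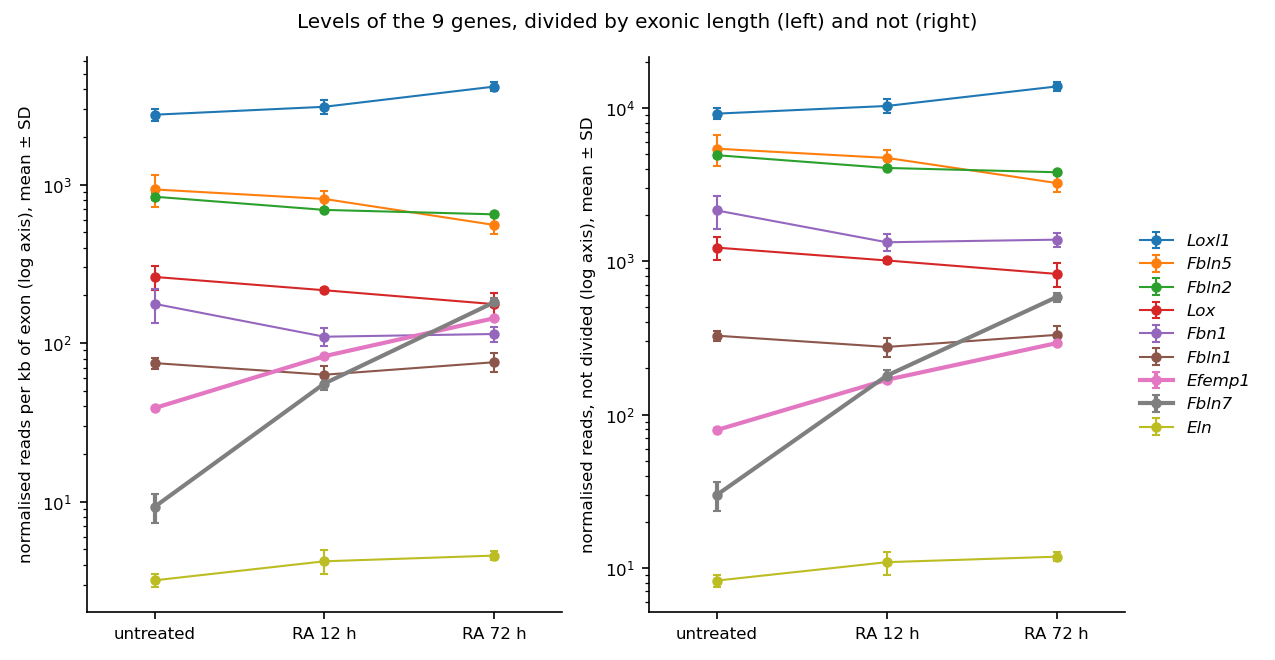
Mean level of the 9 genes on log axes, in normalised reads per kb of exon (left) and in undivided normalised reads (right), with SD bars over 3 untreated, 3 RA 12 h and 2 RA 72 h libraries. Fbln7 climbs from 9.28 to 181 per kb and reaches the level of Lox on the left, but at 584 undivided reads it stays below Lox on the right, and Efemp1 passes Fbln1 and Fbn1 on the left only.

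The make-up of the fibulin transcripts was then taken as each gene's share of the summed level per kb of 6 fibulins, Efemp2 added. The sum was 3444 ± 334 untreated, 3287 ± 229 at 12 h and 3239 ± 151 at 72 h. Within it the share of Fbln7 was 0.272% ± 0.0678 untreated, 1.69% ± 0.0440 at 12 h and 5.60% ± 0.647 at 72 h. The share of Efemp1 was 1.14% ± 0.0820, 2.53% ± 0.209 and 4.44% ± 0.120. The share of Fbln5 was 26.8% ± 3.62, 24.6% ± 1.30 and 17.2% ± 1.41, and that of Fbln2 was 24.4% ± 1.78, 21.1% ± 1.91 and 20.1% ± 0.818. Efemp2, the fibulin that brings Lox to tropoelastin, held 45.1% ± 2.66, 48.1% ± 1.15 and 50.4% ± 0.606. Without division by length, an alternative chosen after seeing the data, the Fbln7 share was 0.203%, 1.32% and 4.65% and the Efemp1 share 0.536%, 1.24% and 2.33%. On that scale Efemp2 held 27.7%, 30.7% and 34.3%, Fbln2 33.2%, 30.0% and 30.3%, and Fbln5 36.1%, 34.7% and 25.7%, so that which fibulin was highest untreated and at 12 h, Efemp2 or Fbln5, depended on the division. With and without it, Fbln7 and Efemp1 each held a smaller share than Efemp2, Fbln2 and Fbln5 at 72 h.

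Of the 24 other elastic fibre and microfibril genes, 21 passed the filter, and Mfap4, Emilin3 and Adamtsl2 were too low to test. At 12 h 1 was called higher and 1 lower, at 72 h 1 higher and 2 lower, and between the times 0 higher and 1 lower. The shares over all genes were 1.11% higher and 0.308% lower at 12 h, 2.15% and 1.52% at 72 h, and 0.765% and 0.734% between the times. The median log2 change of the 21 was 0.03, -0.11 and -0.05 in these comparisons, beside -0.02, -0.02 and -0.00 over all genes.

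Loxl2, a lysyl oxidase known for cross-linking type IV collagen, was the gene called higher. It had 58.375, 56.75 and 63.625 normalised reads untreated, 276.625, 246.75 and 254 at 12 h, and 296.375 and 279.375 at 72 h. Its log2 change was 2.10 ± 0.13 at 12 h (adjusted p = 5.04e-07) and 2.25 ± 0.14 at 72 h (adjusted p = 3.89e-07), and the step between them, 0.15 ± 0.14, did not pass (adjusted p = 0.630). Gm16867 overlaps Loxl2 on the opposite strand. No pair of the RA receptor words was found within 10 kb of the Loxl2 start. None was found near Cyp26b1 either, an RA-response gene called higher at both times. Of the other RA-response genes, Rarb held 1 pair, spaced by 5, and Dhrs3 held 1 spaced by 1 and 1 spaced by 5.

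Fbn2, the fibrillin of fetal tissue, had 351.625, 272.75 and 284.5 normalised reads untreated and 140.25, 119.75 and 147 at 12 h. It had 99.25 and 147.875 at 72 h, so that all RA libraries were below the untreated ones. The log2 change was -1.15 ± 0.17 at 12 h (adjusted p = 0.000881) and -1.31 ± 0.19 at 72 h (adjusted p = 0.000432). Both fibrillins were lower with RA, Fbn2 by over 2-fold and Fbn1 by less.

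Mfap2, which codes for a small glycoprotein of microfibrils, fell late. It had 38.875, 33.75 and 33.75 normalised reads untreated, 30.875, 30.125 and 41.25 at 12 h, and 17 and 14 at 72 h. The log2 change was -0.07 ± 0.23 at 12 h (adjusted p = 0.917) and -1.15 ± 0.26 at 72 h (adjusted p = 0.00976). The call at 72 h was lost without RA 72 h replicate 2 (adjusted p = 0.0883, the highest of a range from 0.00227) and with a pseudocount of 10, where the change was -0.83. The step from 12 h to 72 h, -1.08 ± 0.26 (adjusted p = 0.0242), was lost without any 1 of the 5 RA libraries, with adjusted p from 0.0637 without RA 12 h replicate 2 to 0.201 without RA 72 h replicate 2, over alternatives that began at 0.00456.

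Other genes of the list passed the adjusted p without reaching 2-fold, and all 5 are named after their values were seen. Ltbp3, which codes for a binding protein of latent TGF-beta, rose by 0.89 ± 0.12 at 12 h (adjusted p = 0.000486) and 0.84 ± 0.13 at 72 h (0.00105), and it passed at both times under every alternative, with adjusted p of at most 0.0195 and 0.0274. Ltbp2, of the same family, rose by 0.45 ± 0.10 at 12 h (adjusted p = 0.0179, range 0.00213 to 0.0988). That rise was lost without untreated replicate 1 (0.0988) and without RA 12 h replicate 1 (0.0856), 2 (0.0703) or 3 (0.0604). The step of Ltbp2 from 12 h to 72 h was -0.79 ± 0.11 (adjusted p = 0.00091) and passed under every alternative. Adamtsl4, whose product binds fibrillin-1, fell by 0.64 ± 0.12 at 12 h (adjusted p = 0.00739, range 3.09e-05 to 0.0495). At 72 h it changed by -0.56 ± 0.14 (adjusted p = 0.0170, range 0.000279 to 0.167), which did not pass without RA 72 h replicate 2 (0.167). Mfap5 changed at 72 h by -0.63 ± 0.13 (adjusted p = 0.0069, range 0.000431 to 0.0662), which did not pass without RA 72 h replicate 2 (0.0662). Adamts10 changed at 72 h by -0.56 ± 0.14 (adjusted p = 0.0192, range 0.00447 to 0.202), which did not pass without untreated replicate 1 (0.0547), RA 72 h replicate 1 (0.202) or RA 72 h replicate 2 (0.0519). The use of strand in counting is not given, so reads of genes that overlap on opposite strands, as at Ltbp2 and Ltbp3, cannot be told apart. Efemp2 had mean levels of 4106 untreated, 4188 at 12 h and 4323 at 72 h, with log2 changes of 0.03 ± 0.11 and 0.08 ± 0.12 that did not pass (adjusted p = 0.924 and 0.754).

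**Figure D4:**
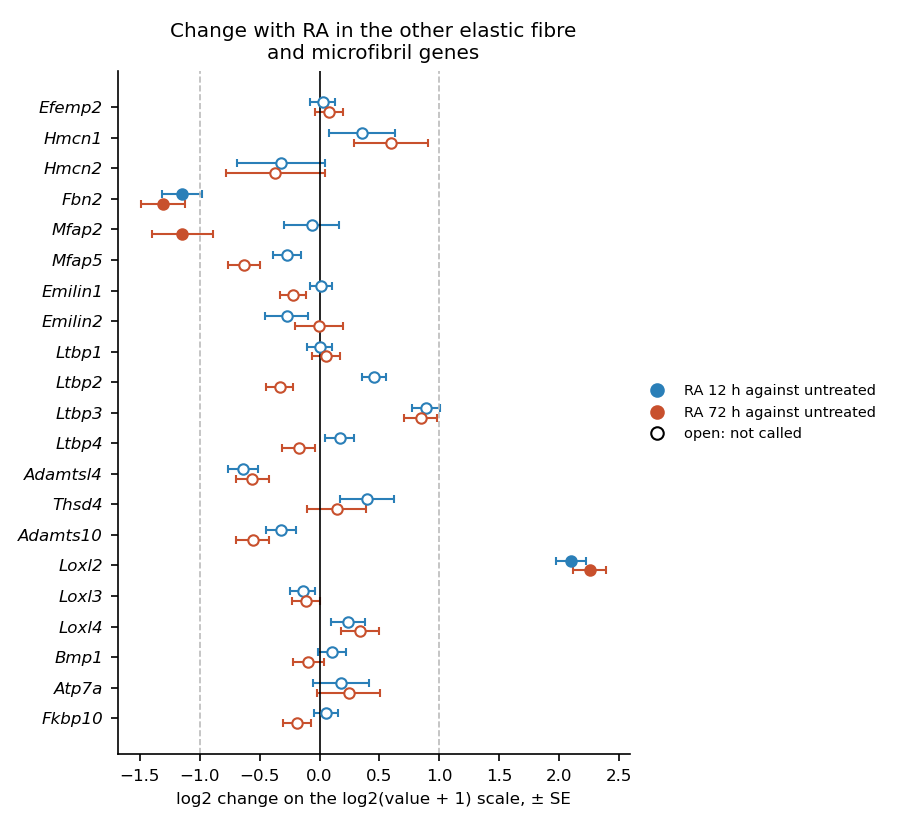
Log2 change of the 21 other elastic fibre and microfibril genes tested, at 12 h and 72 h of RA against untreated, with the SE of the fit as bars, filled points for called genes and dashed lines at a 2-fold change. Loxl2 lies beyond the line on the right at both times, Fbn2 beyond the line on the left at both times and Mfap2 there at 72 h.

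The genes whose pattern was most like that of Fbln7 over the 8 libraries were Thbd (Pearson r = 0.995 of log2 values), Gpr124 (r = 0.993) and Lgr4 (r = 0.993). Thbd codes for thrombomodulin, and its mean level was 251 untreated, 579 at 12 h and 1202 at 72 h. Gpr124 had means of 975, 2065 and 2904, and Lgr4 had 226, 364 and 466. The r describes 8 points in 3 groups that share libraries, and these genes were picked from 12673 as the most alike.

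Markers of smooth muscle were read for comparison, since smooth muscle cells also make elastic fibres. The labels name no other cell type in the culture. Acta2 and Tagln had untreated means of 13214 and 16502, while Myh11, Des and Myocd stayed low, with highest values of 19.5, 32.375 and 19.25. Of 8 smooth muscle markers tested, 0 were called in any comparison, and their summed level ran from 27965 to 32004 untreated, 27544 to 29505 at 12 h and 24183 to 25684 at 72 h. Tagln had the largest drop in this sum, from a mean of 16502 to 11532, while 6 of the 8 markers had a higher mean at 72 h than untreated and the median log2 change of the 8 was 0.14. Among the fibroblast markers Pdgfra was called higher at 12 h and Col3a1 lower at 72 h, and the summed level of the 10 ran from 256139 to 274614 untreated, from 256773 to 267461 at 12 h and from 234049 to 236696 at 72 h. Col3a1 had the largest drop in the fibroblast sum, from an untreated mean of 21176 to 7868 at 72 h. Of the 10 fibroblast markers, 3 had a higher mean at 72 h than untreated and 7 a lower one. Both sums were lower in the 72 h libraries than in every other library, as were Fbln2, Fbln5 and Lox, and the part of this in their changes was not tested. In bulk RNA, fewer cells that express a gene and less RNA of it per cell cannot be told apart.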

How the data were processed

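Gene expression was profiled in 8 libraries, and the authors deposited 1 table of normalised reads per gene, a score that is not a count, with 22200 genes and 1 line without a gene, which held column totals and was left out. Per the study's methods the authors aligned reads to mm9 with TopHat, quantified Ensembl models with Cufflinks, converted them to reads and normalised them. The labels instead describe DpnII tag libraries read as 18 bases. The sorted columns were identical, as quantile normalisation gives, so depth was lost, no counting interval could be given and a change common to most genes could not be seen. The authors' averages and log2 ratios were not used.

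Values were analysed as log2(value + 1) for genes with a mean of at least 10, in limma 3.58.1 (R 4.3.3) with a variance trend, 1 fit of the 3 groups and Benjamini-Hochberg adjustment over 12673 genes in each of 3 contrasts. Called genes had an adjusted p below 0.05 and a 2-fold change. The script was tested on simulated data. The simulated libraries varied independently, without a shared axis, so that test checks the script and not the calls made here. Positions and exon lengths came from GENCODE M1 on mm9, in which 96.7% of identifiers were found. The alternatives were pseudocounts of 10 and 0.5, no filter, a filter at 50, the replicate number as a block, the side of the shared axis as a term, no variance trend, no fold minimum, subtraction of a gene-body background, and each library left out.

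Named were all 9 genes, the genes of the wider list called in any contrast, Efemp2 as the sixth fibulin of the shares, the 3 genes most correlated with the called member of the largest rise (no member was called lower), marker genes, Taf4a, Taf4b, Cyp26b1, Rarb and Dhrs3. Ltbp2, Ltbp3, Adamtsl4, Mfap5 and Adamts10 were named outside this rule, after their values were seen. The members and lists were chosen with earlier results of these data known.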

Additional observations from a re-analysis of the deposited data

Results flagged for a closer look

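Of the 9 genes and the 21 others tested, 4 differed between RA 72 h and RA 12 h in a test of the difference itself. The change was at least 2-fold for 2 of them. Over all genes 2.92% were higher and 2.92% lower by the adjusted p, and 0.765% and 0.734% with the 2-fold minimum. Fbln7 was higher at 72 h by 1.70 ± 0.18 on the log2 scale (adjusted p = 0.000151 in limma, range over the alternatives 2.69e-07 to 0.0121), and Efemp1 by 0.79 ± 0.14 (adjusted p = 0.00392, range 0.000197 to 0.0535), with both 72 h libraries above all 3 at 12 h. Mfap2 differed by -1.08 ± 0.26 (adjusted p = 0.0242, range 0.00456 to 0.201) and Ltbp2 by -0.79 ± 0.11 (adjusted p = 0.00091, range 6.17e-06 to 0.0217), with both 72 h libraries below all 3 at 12 h. The highest values belong to fits without RA 72 h replicate 1 for Efemp1 and without RA 72 h replicate 2 for Mfap2. In each case time in culture differed together with the time in RA.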

How the results depend on the processing

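With a pseudocount of 10, 1 of the 9 genes was called at 12 h in place of 2, since Efemp1 fell to just under 2-fold. Without the fold minimum, 7 of the 9 were called at 72 h and 2 between the times, and 5, 7 and 2 of the wider list in the 3 comparisons. The shares over all genes were then 2.87% higher and 1.5% lower at 12 h, 6.08% and 5.41% at 72 h, and 2.92% and 2.92% between the times. The 1 call of the wider list between the times, Mfap2, went to 0 with a pseudocount of 10, with no filter and with a filter at 50, and leaving out single libraries gave 0 to 1. The filter at 50 removes Mfap2 from the test. With no filter its adjusted p was 0.0807, and with a pseudocount of 10 its change, -0.78, was under 2-fold. Directions that changed belonged to values near 0: Efemp2 at 12 h was -0.036 with the side of the shared axis as a term. With single libraries left out, Efemp2 ranged from -0.025 to 0.11 at 12 h and from -0.030 to 0.11 between the times, Fbln1 at 72 h from -0.12 to 0.15, and Mfap2 at 12 h from -0.21 to 0.013. Between the times Eln ranged from -0.015 to 0.21, Fbn1 from -0.045 to 0.17 and Fbn2 from -0.44 to 0.13. Over all genes, 141 were called higher and 39 lower at 12 h, and leaving out untreated replicate 3 gave 241 and 81. At 72 h the counts were 272 and 193, against 195 and 102 with the filter at 50 and 229 and 122 with a pseudocount of 10.

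The replicate numbers were not treated as pairs: deviations of libraries with the same number correlated between -0.47 and 0.42. With the number as a block, 2, 2 and 1 of the 9 genes were called in the 3 comparisons, as without it, and 2, 3 and 0 of the wider list. At 72 h the block took Fbln2, Lox, Adamtsl4 and Adamts10 above the threshold (adjusted p = 0.106, 0.0832, 0.0726 and 0.0700), and between the times Mfap2 (0.0911). Depth is unknown after quantile normalisation, so that the precision of low genes such as Eln cannot be stated, and 2 libraries at 72 h limit the late comparisons.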
